A study of Mus musculus with 12 samples.

Results

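Gene expression after 24 h of lipopolysaccharide (LPS) was compared with expression after 1 h in dendritic cells cultured from the marrow of mice. The comparison took the 3 arrays of cells stimulated for 24 h and the 3 arrays of cells stimulated for 1 h, chosen by their labels, which made 6 of the 12 arrays of the series. The other 6 arrays, of unstimulated cells and of cells at 6 h, entered the same model and served to show on which side of the unstimulated level a gene lay. All groups were prepared alike. Marrow from femur and tibia was depleted of B and T cells with antibodies and magnetic beads, and the remaining cells were cultured for 5 days with 10 ng/ml GM-CSF plus 5 ng/ml IL-4. They then received LPS at 100 ng/ml and were collected by repeated pipetting, with no later sort named. The labels give no strain, sex or age of the mice. The labels call the 3 samples of each group biological replicates and give them the donor letters A, B and C, without stating whether 1 letter means 1 animal throughout. The only unstimulated cells were collected at 0 h, so time with LPS and time in culture cannot be told apart between 1 h and 24 h.

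LPS, from the outer membrane of Gram-negative bacteria, is sensed by the receptor Tlr4. Its adaptors switch on NF-kB, MAP kinases and interferon regulatory factors within minutes, and the first genes to be transcribed need no new protein. Among them are transcription factors, cytokines, feedback inhibitors and interferon beta. Secreted interferon beta then acts back on the cells through the kinases Jak1 and Tyk2 and factors that include Stat2 and Irf9, which bind the interferon-stimulated response element in the promoters of antiviral genes. As they mature, dendritic cells take up less antigen, display more peptide and costimulatory molecules, and leave the tissue for lymph nodes.

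Each array compared Cy5-labelled cRNA of a sample with a Cy3-labelled pool of mouse RNA, the same on every array, and every level below is a log2 ratio of sample to that pool. A level of 1 gene can therefore not be set against the level of another. Between 48.2 and 57.6% of probes per array were well above local background in the sample channel. Arrays of a group correlated across genes at r = 0.946 to 0.983 at 1 h and at 0.957 to 0.971 at 24 h, where genes are not independent replicates. The 6 arrays lay on 4 slides, and only slide 2 held both groups, as the 1 h and the 24 h array of donor B. Each list of genes below is therefore given by its median log2 change, its median with slide as a block in the model (slide-blocked) and its median within slide 2, which is 1 array against 1. Donor B and slide 2 cannot be told apart among these 6 arrays. The 3 unstimulated arrays lay on slide 1, with the 1 h array of donor A and no 24 h array. Comparisons with unstimulated cells therefore mix group and slide. With 3 arrays per group, their number limits the precision, and p-values measure the spread between these samples. Of 14 conventional dendritic cell markers on the array, 10 were above background on all 1 h arrays and 11 on all 24 h arrays. Itgax and Zbtb46 were so on all arrays, while Cd209a, Clec9a and Siglech were on none. Siglech, though counted here, is a marker of plasmacytoid dendritic cells and is in that list too. Of 13 macrophage and monocyte markers, 11 were above background on all 1 h arrays and 9 on all 24 h arrays. Of 8 plasmacytoid dendritic cell markers 7 were so at each time, and of 10 natural killer cell markers 0. Detection of markers therefore does not single out conventional dendritic cells. In a mixed culture, fewer cells of a type and less RNA per cell cannot be told apart.

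The cells at 24 h differed broadly from those at 1 h. Of 11108 genes tested, 3197 (28.8%) were called at a Benjamini-Hochberg adjusted p under 0.05 in the limma test, 1440 of them higher at 24 h (13%) and 1757 lower (15.8%). The count of members called in each list below is to be read against these shares. A change of at least 2-fold was reached by 855 of the called genes (7.7%), with 381 higher (3.43%) and 474 lower (4.27%). The largest changes were rises more often than falls in number, since 25 genes rose by at least 8-fold and 14 fell by as much, while at 4-fold the counts were 80 and 83. For 4332 genes (39%), the 3 values at 24 h did not overlap the 3 values at 1 h, and 3055 of these were called. The median log2 change over all genes was -0.02, or -0.02 with slide as a block and -0.04 within slide 2.

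**Figure D1:**
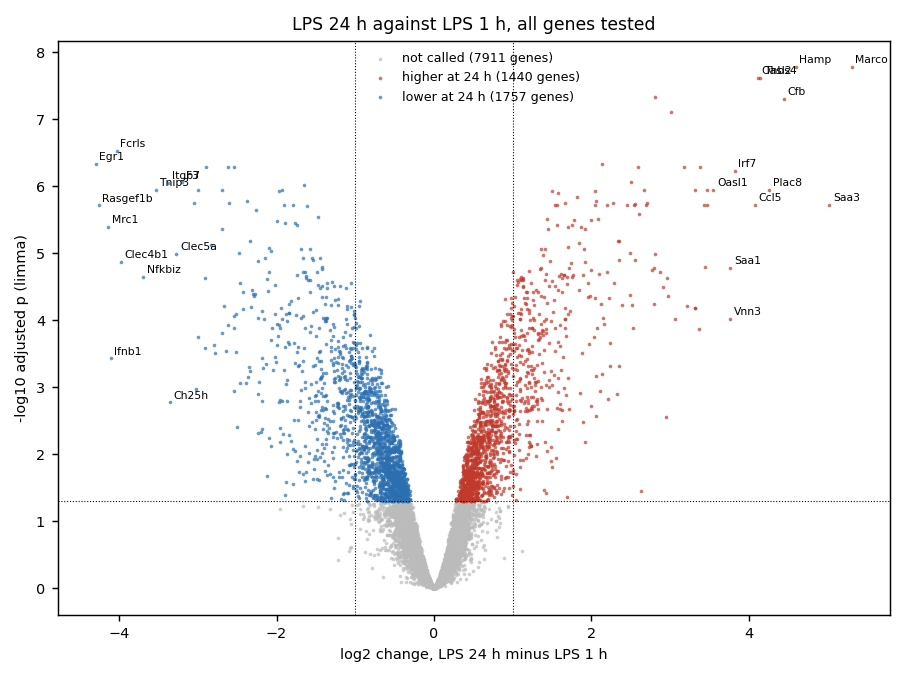
Each point is 1 of 11108 genes, with its log2 change from 1 h to 24 h on the x axis and the -log10 adjusted p of the limma test on the y axis. Dotted lines mark a 2-fold change and an adjusted p of 0.05, and the 24 genes with the largest changes are named. Rises reach 5.31 (Marco) and falls -4.30 (Egr1).

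The genes that rose most from 1 h to 24 h encode a scavenger receptor, acute phase proteins, complement, chemokines and interferon-stimulated proteins. Marco, a receptor that binds bacteria and particles, stood at 1.59, 1.96 and 2.22 at 1 h (donors A, B and C) and at 7.06, 7.08 and 7.57 at 24 h. All 24 h arrays thus lay far above all 1 h arrays, a 39.7-fold difference (log2 change 5.31, SE 0.21, adjusted p = 1.65e-08). The acute phase protein Saa3 stood at -2.47, -1.68 and -2.29 at 1 h and at 2.05, 3.49 and 3.1 at 24 h. It rose 32.5-fold (5.02, SE 0.38, adjusted p = 1.87e-06), with donor B the highest in both groups. Cfb, complement factor B of the alternative pathway, stood at 1.11, 0.97 and 1.23 and then at 5.34, 6.00 and 5.32. Its rise was 21.8-fold (4.45, SE 0.21, adjusted p = 4.92e-08). Ccl5, a chemokine for T cells and monocytes, stood at 3.44, 3.95 and 2.94 and then at 6.88, 8.12 and 7.56, a 16.9-fold rise (4.08, SE 0.31, adjusted p = 1.87e-06). Saa1, whose probe may also bind its near-identical relative Saa2, rose 13.6-fold (3.77, SE 0.37), and Plac8, which had first fallen below the unstimulated level, rose 19.1-fold (4.26, SE 0.29). Oasl2, Oasl1 and Irf7 completed this group and are described with the interferon genes.

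Hamp, Thbs4 and Vnn3 were well above background on no array at 1 h and on all 3 at 24 h, so their 1 h level was not measured and the size of their rise is uncertain. Hamp, which encodes the iron hormone hepcidin and has a close relative in Hamp2, stood at 4.49, 5.28 and 4.76 at 24 h, and its log ratio was 4.60 higher than at 1 h (SE 0.18, adjusted p = 1.65e-08), or 24.2-fold. The log ratio of the extracellular matrix protein Thbs4 was 4.15 higher (17.8-fold, adjusted p = 2.39e-08) and that of the vanin Vnn3 3.77 higher (13.6-fold, adjusted p = 9.41e-05). A second estimate compared Cy5 signals alone, scaled between arrays, with the dimmest signal still called above background in place of the 1 h level, and is open to dye bias, since no dyes were swapped. It gave 77.3-fold for Hamp, 18.1-fold for Thbs4 and 14.1-fold for Vnn3. Each exceeds the fold of the log ratios, so neither is given as a lower bound. Vnn3 varied most between donors at 24 h, at 2.77, 5.05 and 3.38. In all, 51 genes that were above background on no 1 h array were called higher at 24 h, and 46 that were above it on no 24 h array were called lower. A gene dim at one time was tested only if all 3 arrays of another group were above background, so these counts partly follow from the filter. How many tested genes were dim at either time is not given, so the counts have no share beside them.

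Of the 12 largest falls, 7 were in genes that stood far above unstimulated cells at 1 h. Egr1, an immediate early transcription factor, stood at -0.28, -0.05 and -1.11 at 1 h and at -4.46, -5.00 and -4.89 at 24 h, while unstimulated cells stood at -4.38, -4.20 and -4.28. The fall was 4.30 log2 units (-4.30, SE 0.25, adjusted p = 4.59e-07), and its 24 h mean did not differ from unstimulated cells in the test (-0.49, adjusted p = 0.137). Rasgef1b, an exchange factor for Ras-like GTPases, stood at 4.22, 5.15 and 4.49 and then at 0.27, 0.54 and 0.28. It fell by 4.26 (SE 0.32, adjusted p = 1.92e-06). Ifnb1, which encodes interferon beta, stood at 5.47, 7.46 and 5.2 at 1 h and at 1.34, 1.79 and 2.67 at 24 h, and fell by 4.11 (SE 0.61, adjusted p = 0.00037). No unstimulated array had Ifnb1 above background, and all 24 h arrays still did. Nfkbiz, an atypical IkB protein needed for secondary response genes, fell by 3.70 (SE 0.38) but stayed 2.88 above unstimulated cells (adjusted p = 8.82e-05). Tnip3, a partner of the NF-kB inhibitor A20, fell by 3.54 (SE 0.24), the cholesterol 25-hydroxylase Ch25h by 3.36 (SE 0.62) and F3, the tissue factor that starts coagulation, by 3.2 (SE 0.21).

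The other 5 of the 12 largest falls were in surface proteins. Mrc1, the macrophage mannose receptor, stood at 4.21, 5.51 and 4.37 at 1 h and at 0.96, 0.61 and 0.10 at 24 h, where 2 of 3 arrays were above background. It was 17.6-fold higher at 1 h (log2 change -4.14, SE 0.34, adjusted p = 4.06e-06). Fcrls, an Fc receptor-like scavenger protein, stood at 4.99, 5.15 and 5.08 and then at 1.45, 1.15 and 0.53, a fall of 4.03 (SE 0.22, adjusted p = 2.96e-07) from a level at which 1 h and unstimulated cells had not differed in the test (0.28, adjusted p = 0.479). The lectin Clec4b1 fell by 3.98 (SE 0.38) and the lectin Clec5a fell by 3.27 (SE 0.30). The integrin subunit Itgb7 fell by 3.38 (SE 0.22). Every one of these 24 genes kept its direction and call with slide as a block (absolute log2 changes of 3.03 to 5.44) and had the same sign within slide 2 (3.12 to 5.66).

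**Figure D2:**
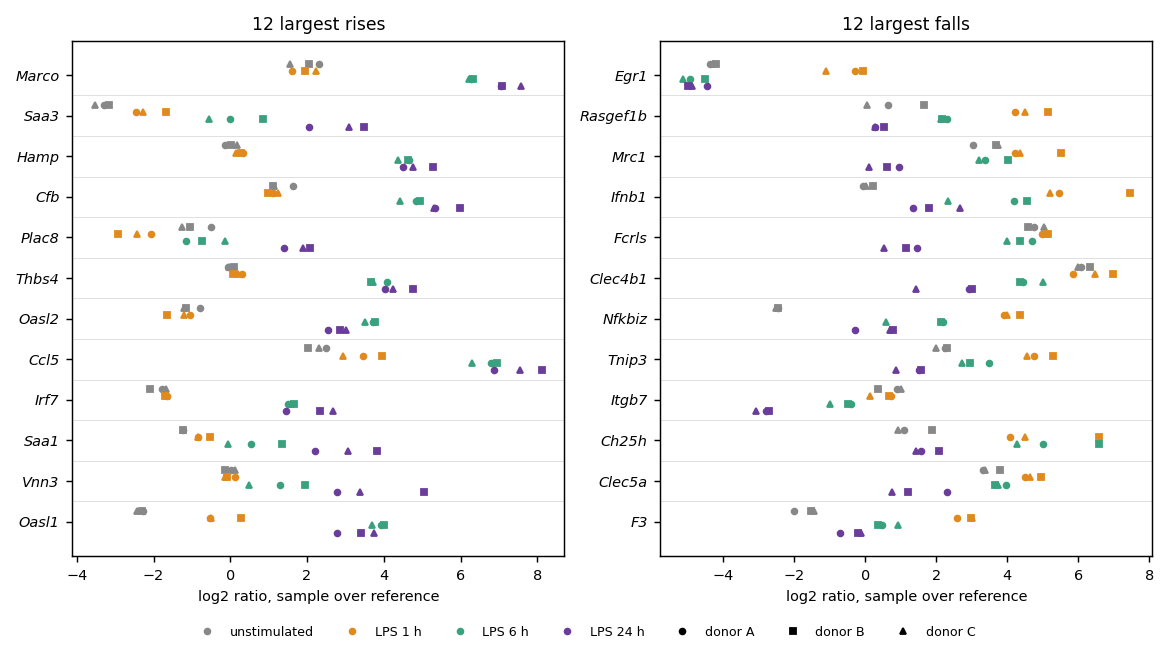
Log2 ratio of sample to reference (x axis) on each of the 12 arrays for the 12 genes with the largest rise (left) and the 12 with the largest fall (right), coloured by group and with 1 symbol per donor. The genes were chosen among called genes whose 3 values at 24 h do not overlap the 3 at 1 h, so that gap is given by the choice. Egr1 at 24 h lies near its unstimulated values, while Mrc1, Fcrls and Itgb7 lie below theirs.

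Interferon beta and its target genes had changed in opposite directions. Of the 24 interferon signalling and regulatory factors tested, 13 rose from 1 h to 24 h and 4 fell (median 0.52, slide-blocked 0.59, slide 2 0.47). The ligand Ifnb1 fell as given above. The receptor chain of the type II interferon, Ifngr1, stood at 1.69, 2.03 and 1.63 at 1 h and at -0.03, -0.04 and -0.31 at 24 h, and fell by 1.91 (SE 0.14, adjusted p = 1.87e-06). The signal transducer Stat2 rose by 2.10 (SE 0.21, adjusted p = 2.03e-05). Irf7, the factor that amplifies interferon production, stood at -1.64, -1.70 and -1.66 at 1 h, next to -1.78, -2.10 and -1.68 in unstimulated cells, and at 1.45, 2.33 and 2.69 at 24 h. It rose 14.2-fold (3.82, SE 0.24, adjusted p = 5.87e-07).

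Among 47 interferon-stimulated genes, 44 rose and none fell (median 1.67, slide-blocked 1.94, slide 2 1.93). The 3 not called were Ifi44 (0.64), Ifih1 (0.21) and Slfn2 (-0.09), named after their values were seen. Oasl2, of the oligoadenylate synthetase-like family, stood at -1.06, -1.64 and -1.21 at 1 h and at 2.55, 2.85 and 3.02 at 24 h, a 17.3-fold rise (4.11, SE 0.18, adjusted p = 2.39e-08). Ifit3, which belongs to a family that binds foreign RNA, rose 11.0-fold (3.47, SE 0.24) from a 1 h level equal to that of unstimulated cells (0.00). Oasl1 and Rsad2, the antiviral enzyme viperin, had already risen at 1 h (2.10 and 2.68 against unstimulated cells) and rose by a further 3.55 (SE 0.24) and 3.37 (SE 0.44). Isg15, a ubiquitin-like modifier, was already high at 1 h, at 1.71, 2.34 and 1.65 against -1.89, -2.0 and -2.0 in unstimulated cells. It reached 2.72, 3.30 and 3.62 at 24 h, a 2.49-fold further rise (adjusted p = 0.000795). Against unstimulated cells the median of the list was 0.00 at 1 h, 3.17 at 6 h and 1.96 at 24 h. These 3 medians share the unstimulated arrays.

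Promoters of the interferon-stimulated genes were searched for the core of the response element, TTTC and TTTC parted by any 2 bases, on both strands, in the RefSeq promoter table of mouse build GRCm38.p6 (250 bases before to 50 after the start). A promoter was found for 37 of the 47 genes, and 22 of these held the core (59.5%). The share was 14% among the 300 matched genes that were at least 2-fold higher at 24 h, 6.27% among the 383 that were lower, 4.03% among 8980 tested genes with a promoter and 3.44% among all 32851 promoters. The 2-fold higher genes included 39 of the 47 listed genes, so their share is not separate from that of the list. Matches describe letters in this window only. Stretches around the core are shown for 5 genes, chosen after their values and matches were seen, since they moved in different ways. Rsad2, Ifit3 and Isg15 are described above, Ifit1 rose by 1.40, and Irgm2, an immunity-related GTPase, was below unstimulated cells at 1 h. Capitals mark the core, which reads GAAA and GAAA where it lies on the other strand.
Rsad2, chr12:26456543-26456592, minus strand: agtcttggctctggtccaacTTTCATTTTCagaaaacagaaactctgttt
Ifit1, chr19:34640765-34640833, plus strand: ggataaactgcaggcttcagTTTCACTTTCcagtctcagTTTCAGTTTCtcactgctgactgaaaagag
Ifit3, chr19:34583353-34583436, plus strand: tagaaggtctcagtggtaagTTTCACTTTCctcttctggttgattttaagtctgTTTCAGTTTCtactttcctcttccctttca
Isg15, chr4:156200855-156200916, minus strand: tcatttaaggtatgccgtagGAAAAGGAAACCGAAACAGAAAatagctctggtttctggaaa
Irgm2, chr11:58214893-58214942, plus strand: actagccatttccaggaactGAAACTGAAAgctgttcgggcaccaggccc
Ifit1 and Ifit3 each held 2 separate cores and Isg15 3 overlapping ones, while Rsad2 and Irgm2 held 1. The first core began 120 bases before the start in Rsad2, 104 in Ifit1, 156 in Ifit3, 78 in Isg15 and 64 in Irgm2.

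Most genes of MHC class I and peptide loading rose, and those of MHC class II did not. Of 17 genes of MHC class I and peptide loading, 12 rose from 1 h to 24 h and 1 fell, the chaperone Canx (-0.43, named after its value was seen) (median 1.14, slide-blocked 1.33, slide 2 1.34). Tap1, which pumps peptides into the endoplasmic reticulum, stood at 0.99, 0.18 and 0.74 at 1 h and at 1.95, 1.89 and 2.46 at 24 h, and rose 2.76-fold (1.46, SE 0.25, adjusted p = 0.001). The loading protein Tapbp rose by 1.36 (SE 0.17), and the class I genes H2-T22 and H2-T10, whose probes may bind related class I genes, rose by 1.75 and 1.70. In the proteasome list 5 of 27 rose, or 2 with median centring, and 1 fell (median 0.10, slide-blocked -0.02, slide 2 0.10). Over all genes 13% rose and 15.8% fell. The largest rise was that of the immunoproteasome subunit Psmb9, which rose by 1.17 (SE 0.13, adjusted p = 3.76e-05). Of 17 class II genes none rose and 4 fell (median 0.00, slide-blocked 0.03, slide 2 0.16). H2-Ab1, a class II chain, stood at 4.74, 4.91 and 4.53 at 1 h and at 4.52, 5.16 and 4.63 at 24 h, so the groups overlapped (0.04, adjusted p = 0.9). The class II transactivator Ciita (0.06, adjusted p = 0.913) was not called either. H2-DMa, a class II peptide exchange factor, fell by 1.02 (SE 0.15, adjusted p = 0.000441), but not with median centring in place of loess (adjusted p = 0.0676) or with the background of every spot as deposited (adjusted p = 0.169).

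Among 30 genes of dendritic cell maturation and costimulation, 13 rose and 4 fell (median 0.37, slide-blocked 0.50, slide 2 0.68), and 8 rose with the background of every spot as deposited. The costimulatory ligand Cd86 stood at 2.63, 2.53 and 2.74 at 1 h and at 4.01, 4.50 and 4.36 at 24 h, a 3.15-fold rise (1.66, SE 0.17, adjusted p = 2.14e-05). Cd200, which signals to an inhibitory receptor on myeloid cells, rose 4.47-fold (2.16, SE 0.27) and Il15ra, which presents interleukin 15 to lymphocytes, 3.42-fold (1.77, SE 0.18). The actin bundler Fscn1, used for dendrite formation, rose by 1.15 (SE 0.21). Tnfsf9, the ligand of 4-1BB, went the other way. It stood at 2.63, 3.04 and 2.59 at 1 h and at -0.28, 0.46 and 0.02 at 24 h, close to the -0.48, -0.32 and -0.21 of unstimulated cells, and fell by 2.69 (SE 0.18, adjusted p = 1.13e-06). Cd83, a maturation marker, stood at 7.66, 8.16 and 7.60 and then at 7.42, 8.39 and 7.48, which overlap (adjusted p = 0.933). The lymph node homing receptor Ccr7 stood at 5.60, 5.91 and 5.00 and then at 6.04, 6.76 and 6.07. It was called (0.79, adjusted p = 0.0382), but the call was lost under 5 of 13 other settings and when any of 4 single arrays was left out (adjusted p = 0.0513 to 0.161). Cxcr5, a receptor for the B cell zone chemokine, rose by 2.28 (SE 0.17, adjusted p = 1.77e-06).

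Acute phase, complement and iron genes split. Of 25 tested, 15 rose and 7 fell (median 1.27, slide-blocked 1.07, slide 2 0.98), and 4 fell with the background of every spot as deposited. Besides Saa3, Saa1, Cfb and Hamp, the iron-trapping protein Lcn2 stood at -0.34, 0.46 and -0.65 at 1 h and at 2.58, 3.11 and 2.67 at 24 h, and rose 7.80-fold (2.96, SE 0.30, adjusted p = 2.32e-05). Lcn2 is also a neutrophil marker. Of 11 tested neutrophil markers 2 rose and 1 fell, against 13% and 15.8% of all genes. Of 14 on the array, 9 were above background on all 1 h arrays and 9 on all 24 h arrays. Elane, Camp and Retnlg were above it on no 1 h or 24 h array. The part of other cell types in the rise of Lcn2 was not tested. The members that fell included lysozyme (Lyz2, by 1.84, SE 0.21), whose probe may bind Lyz1, and the transferrin receptor Tfrc (by 1.14, SE 0.37, adjusted p = 0.0373). Tfrc lost its call under 6 of 13 other settings and when any of 4 single arrays was left out (adjusted p = 0.0825 to 0.151).

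Most genes in the list of Nrf2 and the antioxidant response were called higher at 24 h. Control of these genes by Nrf2 was not tested. Of 30, 19 rose and 2 fell (median 0.64, slide-blocked 0.55, slide 2 0.52). The 2 that fell, named after their values were seen, were Nfe2l2 (-0.93), which encodes Nrf2 itself, and the glutathione peroxidase Gpx1 (-0.45). The ferritin heavy chain Fth1 stood at -0.60, -0.31 and -0.55 at 1 h and at 2.41, 3.24 and 3.02 at 24 h, a 10.4-fold rise (3.38, SE 0.21, adjusted p = 5.13e-07). The glutathione transferase Gstm1 rose 6.09-fold (2.61, SE 0.20) and the mitochondrial superoxide dismutase Sod2 3.24-fold (1.70, SE 0.18). Prdx1, a peroxiredoxin, rose by 1.99 (SE 0.38, adjusted p = 0.00187), with donor B lowest at 24 h (1.24, -0.09 and 1.83). With median centring in place of loess 9 members rose and Prdx1 lost its call (adjusted p = 0.0548), and with the background of every spot as deposited 12 rose. At 1 h and 6 h the median of these genes lay 0.13 and 0.14 above unstimulated cells, and at 24 h 0.88 above.

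Inflammatory cytokines also went both ways between 1 h and 24 h. Of 24, 9 rose and 7 fell, with a median of -0.11. It was above 0 under 3 of 13 other settings, slide-blocked among them (0.23), and without the 1 h array of donor B (0.17) or the 24 h array of donor A (0.12), and was -0.28 within slide 2. Tnf stood at 5.78, 6.00 and 5.64 at 1 h and at 3.37, 3.52 and 3.76 at 24 h. It fell by 2.26 (SE 0.17, adjusted p = 2.29e-06) and stayed 2.91 above unstimulated cells (adjusted p = 2.54e-07). The p19 subunit Il23a fell by 2.50 (SE 0.53, adjusted p = 0.00386) and endothelin 1 (Edn1) by 2.14 (SE 0.33). Il6 and Il1b, both pyrogenic cytokines, were not called. Il6 stood at 7.39, 8.44 and 6.77 at 1 h and at 6.44, 7.71 and 7.67 at 24 h (-0.26, SE 0.46, adjusted p = 0.73). Il1b stood at 7.73, 8.45 and 7.69 and then at 7.59, 8.49 and 8.08 (0.10, SE 0.30, adjusted p = 0.857). In both the groups overlapped, and donor B was the highest on both occasions. Il1a was called lower (-0.56, adjusted p = 0.0388) and lost that call under 8 of 13 other settings, slide as a block among them (adjusted p = 0.16). It also lost it when any of 4 single arrays was left out (adjusted p = 0.0673 to 0.147). Il10 was above background on 2 of 3 arrays in each group and was not tested.

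Chemokines went both ways. Of 23, 7 rose and 8 fell, with a median of 0.02 that was below 0 under 6 of 13 other settings and was 0.03 with slide as a block and -0.13 within slide 2. Ccl2, which draws monocytes, stood at 2.83, 2.33 and 2.92 at 1 h and at -0.09, -0.44 and 1.08 at 24 h, and fell by 2.52 (SE 0.36, adjusted p = 0.0003). The neutrophil chemokine Cxcl3 stood at 3.28, 5.53 and 4.38 and then at 6.52, 7.74 and 7.77, and rose 7.73-fold (2.95, SE 0.59, adjusted p = 0.00279). Cxcl5, above background on no 1 h array, was higher at 24 h by 3.32 in log ratio (10.0-fold, adjusted p = 6.57e-05) and 10.2-fold by the Cy5 estimate described for Hamp. Cxcl10 stood at 3.86, 4.60 and 3.89 at 1 h and at 1.2, 2.85 and 3.39 at 24 h, and was called lower (-1.64, SE 0.49, adjusted p = 0.0246). That call was lost under 4 of 13 other settings, slide-blocked among them (adjusted p = 0.2), and without the 1 h array of donor B or the 24 h array of donor A (adjusted p = 0.0741 and 0.0767). Cxcl2 was not called (-1.08, adjusted p = 0.274). Ccl22, a chemokine for regulatory T cells, stood at 0.41, 2.22 and 0.42 at 1 h and at 1.01, 4.31 and 1.08 at 24 h, so that donor B was high at both times. It was not called (1.12, adjusted p = 0.277) but was with slide as a block (1.53, adjusted p = 0.00283). Chemokines called lower numbered 4 with the background of every spot as deposited and 5 with median centring, with the Cy5 channel alone or with slide as a block. Those called higher numbered 4 with the background of every spot as deposited.

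Most immediate early transcription factors were lower at 24 h than at 1 h. Of 25, 16 fell and 2 rose (median -0.72, slide-blocked -0.92, slide 2 -1.0). Against unstimulated cells, 15 were higher and 1 lower at 1 h (4.06 and 3.39% of all genes), and 10 were higher and 5 lower at 24 h (17.9 and 21.4% of all genes), with medians of 1.05 and 0.30 that share the unstimulated arrays. Fos stood at -1.94, -1.69 and -2.51 at 1 h and at -3.76, -3.42 and -3.35 at 24 h, against -3.42, -3.25 and -3.32 in unstimulated cells. It fell by 1.47 (SE 0.21, adjusted p = 0.000298), but not with the background of every spot as deposited (adjusted p = 0.133). Nr4a1, an orphan nuclear receptor, fell by 2.02 (SE 0.24, adjusted p = 8.02e-05). Klf4, a factor of monocyte development, had not risen at 1 h (0.12, adjusted p = 0.849) and fell by 2.54 (SE 0.31). The related receptor Nr4a2 did the reverse, at -0.23, -0.83 and -0.83 at 1 h and 0.64, 2.30 and 1.59 at 24 h (2.14, SE 0.34, adjusted p = 0.000629). Among 16 mRNA decay regulators 5 fell and none rose (median -0.28, slide-blocked -0.29, slide 2 -0.37). With median centring 2 fell. With slide as a block, the background of every spot as deposited or only the groups compared 3 fell, as they did without the 1 h array of donor A or C or the 24 h array of donor C. Zfp36, which speeds the decay of cytokine mRNA, stood at 1.68, 1.43 and 1.61 at 1 h and at -0.19, 0.16 and 0.41 at 24 h, a fall of 1.45 (SE 0.16, adjusted p = 3.27e-05). The antiproliferative Btg2 fell by 1.79 (SE 0.14).

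The CArG box, the site of serum response factor that defines many immediate early promoters, was searched in the same promoter windows on both strands. It was found in 2 of the 20 immediate early genes with a promoter (10%), Egr2 and Zfp36, against 1.58% of tested genes with a promoter and 1.63% of all promoters. Both are shown, chosen for the match, with the box in capitals.
Egr2, chr10:67537474-67537523, plus strand: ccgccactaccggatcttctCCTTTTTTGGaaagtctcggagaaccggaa
Zfp36, chr7:28379257-28379306, minus strand: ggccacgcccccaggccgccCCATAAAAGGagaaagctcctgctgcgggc
The box began 72 bases before the start in Egr2 and 58 in Zfp36.

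Of 28 NF-kB subunits, inhibitors and feedback genes, 10 rose, 5 fell and 13 were not called (median 0.26, slide-blocked 0.35, slide 2 0.47). The 5 that fell were inhibitors or feedback genes. Besides Nfkbiz and Tnip3 they were Nfkbid, Tnfaip3 and Nfkbia. Nfkbid, a further atypical IkB protein, stood at 3.60, 3.71 and 3.72 at 1 h and at 1.04, 1.45 and 0.92 at 24 h, and fell by 2.54 (SE 0.15, adjusted p = 5.13e-07). Tnfaip3, which encodes the deubiquitinase A20, fell by 2.18 (SE 0.34, adjusted p = 0.000518). Nfkbia, the classical inhibitor IkB alpha, fell by 1.01 (adjusted p = 0.0152) and lost the call with slide as a block (adjusted p = 0.0681). It also lost it with the Cy5 channel alone (adjusted p = 0.052), and without the 1 h array of donor B or the 24 h array of donor A (adjusted p = 0.0529 and 0.0577). The members called higher numbered 6 with median centring or the Cy5 channel alone, and 5 with the background of every spot as deposited and without the 1 h array of donor A or the 24 h array of donor B. They numbered 6 without the 1 h array of donor C. In the MAP kinase, G protein and cytokine feedback list 6 of 23 rose and 6 fell, with a median of -0.05 that was 0.14 with slide as a block and -0.01 within slide 2. Errfi1, an inhibitor of EGF receptor family kinases, stood at 0.96, 1.08 and 1.17 and then at -1.71, -2.12 and -1.64, and fell by 2.89 (SE 0.17, adjusted p = 5.13e-07). Dusp2, a MAP kinase phosphatase, fell by 2.23 (SE 0.40). The cytokine signalling inhibitors differed. Socs3 was not called, at 2.42, 2.53 and 2.30 and then at 1.96, 2.52 and 2.46 (adjusted p = 0.692), well above unstimulated cells at both times (2.71 and 2.61). Socs1 stood at 4.04, 3.94 and 4.07 in unstimulated cells, was at 2.57, 2.12 and 2.59 at 1 h and at 3.79, 3.83 and 4.26 at 24 h (1.53, SE 0.17, adjusted p = 4.97e-05).

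Of 21 Toll-like receptors, co-receptors and adaptors, 5 were higher, or 3 with median centring, and 2 lower (median -0.01, slide-blocked 0.18, slide 2 0.10). Tlr2, which senses bacterial lipoproteins, had risen at 1 h and fell by 1.86 (SE 0.34, adjusted p = 0.00159). Its partner Tlr1 rose by 1.39 (SE 0.18), as did Ly96, the MD-2 subunit that binds LPS, by 1.37 (SE 0.18). Tlr4 itself stood at 0.30, 1.70 and 0.38 at 1 h and at 0.00, 0.15 and -0.28 at 24 h. It was not called (-0.84, SE 0.30, adjusted p = 0.0515), but was with donor as a block (adjusted p = 0.0134) and with slide as a block (adjusted p = 0.0175).

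Of 24 genes that respond to interleukin 4, 13 fell and 3 rose (median -0.66, slide-blocked -0.61, slide 2 -0.51). Mrc1 led the falls. Clec10a, a lectin for galactose-type sugars, stood at 7.06, 7.77 and 6.98 at 1 h and at 5.03, 4.47 and 3.57 at 24 h, and fell by 2.91 (SE 0.30, adjusted p = 2.37e-05), but not in the scanner software's processed signals (adjusted p = 0.0629). The adhesion protein E-cadherin, Cdh1, fell by 2.43 (SE 0.27, adjusted p = 3.78e-05). Arginase 1 (Arg1), at 7.0, 7.47 and 6.70 and then at 6.35, 6.58 and 6.28, was called lower (-0.65, adjusted p = 0.017). The call was lost under 5 of 13 other settings, slide as a block among them (adjusted p = 0.0622), and without the 1 h array of donor B or the 24 h array of donor C (adjusted p = 0.0516 and 0.0641). Among 25 C-type lectins, scavenger and Fc receptors, 9 fell, 6 rose and 10 were not called (median -0.12, slide-blocked -0.21, slide 2 -0.20), and Marco rose most. With median centring or the background of every spot as deposited 4 fell. The inducible nitric oxide synthase Nos2, which draws on the same arginine as arginase, rose 4.11-fold (2.04, SE 0.27, adjusted p = 0.000177). The integrin Itgam and the monocyte receptor Ccr2 fell by 1.46 (SE 0.22) and 2.78 (SE 0.40), Itgam not in the scanner software's processed signals (adjusted p = 0.602) nor with the background of every spot as deposited (adjusted p = 0.174). Of 11 tested markers of macrophages and monocytes 5 fell and 3 rose, and of 11 of conventional dendritic cells 4 fell and 1 rose. Over all genes 15.8% fell and 13% rose. The part of a change in cell composition was not tested.

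Genes of cell division were lower at 24 h than at 1 h. Of 45 mitosis and kinetochore genes, 34 fell and 1 rose (median -0.95, slide-blocked -1.07, slide 2 -0.64). Of 36 genes of DNA replication and S phase, 27 fell and 1 rose (median -0.86, slide-blocked -0.86, slide 2 -0.48). The 1 h arrays were uneven. Against the unstimulated mean, the median of the mitosis genes was -0.63, -1.40 and -0.26 at 1 h for donors A, B and C, and -1.51, -1.94 and -1.82 at 24 h, so the 1 h array of donor B lay near the 24 h arrays. Without the 1 h array of donor C, 17 mitosis genes fell, and 21 fell without the 1 h array of donor A or without the 24 h array of donor C. The inhibitor of apoptosis and spindle protein Birc5 stood at -1.09, -2.73 and -0.32 at 1 h and at -2.92, -3.86 and -3.73 at 24 h (-2.12, SE 0.62, adjusted p = 0.0212). It lost its call with median centring (adjusted p = 0.117) and without any of 4 single arrays (adjusted p = 0.0626 to 0.0931). Cyclin B2, Ccnb2, stood at -0.83, -2.12 and -0.30 and then at -2.75, -3.27 and -3.53 (-2.10, SE 0.47, adjusted p = 0.00561). Cdc20, an activator of the anaphase-promoting complex, fell by 1.96 (SE 0.46), and the ribonucleotide reductase subunit Rrm2, which makes deoxynucleotides, by 2.00 (SE 0.28, adjusted p = 0.000233). With median centring in place of loess only 3 of the mitosis genes and 2 of the replication genes were called lower, and Ccnb2 and Cdc20 missed the threshold (adjusted p = 0.0596 and 0.057). With the background of every spot as deposited 17 mitosis genes were called lower.

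The promoters of these genes were searched for the cell cycle genes homology region, TTTGAA, on both strands. It was present in 27 of 37 mitosis genes with a promoter (73%), against 15.6% of the 32 replication genes, 15.1% of tested genes with a promoter and 17.9% of all promoters. The E2F site TTCCCGCC was in 21.9% of replication genes, 2.7% of mitosis genes, 4.63% of tested genes with a promoter and 2.19% of all promoters. The CCAAT box was in 75.7% of mitosis and 62.5% of replication genes, 43.4% of tested genes with a promoter and 37.4% of all promoters. Stretches around TTTGAA in capitals are shown for Ccnb2 and Cdc20, chosen after the matches were seen.
Ccnb2, chr9:70421691-70421746, minus strand: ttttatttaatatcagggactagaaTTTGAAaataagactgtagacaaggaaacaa
Cdc20, chr4:118437344-118437386, minus strand: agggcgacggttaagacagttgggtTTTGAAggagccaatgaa
The match began 167 bases before the start in Ccnb2 and 18 in Cdc20.

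The lists of growth and energy genes held more falls than rises, and in all but ribosome biogenesis most members were not called. Ribosome biogenesis and RNA polymerase I genes fell in 25 of 35 cases and rose in none (median -0.69, slide-blocked -0.69, slide 2 -0.62), and 11 fell with median centring. Nop58, of the particles that modify ribosomal RNA, stood at -1.44, -1.09 and -1.11 at 1 h and at -3.03, -3.10 and -3.52 at 24 h, and fell by 2.00 (SE 0.16, adjusted p = 3.33e-06). The assembly factor Rrs1 fell by 1.89 (SE 0.23). Myc, the growth factor-induced regulator of these genes, was at -0.93, -1.01 and -1.05 at 1 h, the level of unstimulated cells, and fell by 1.93 (SE 0.24, adjusted p = 9.67e-05). In the mitochondrial respiratory chain 15 of 40 fell and none rose (median -0.37, slide-blocked -0.40, slide 2 -0.26). With median centring 1 fell, with the background of every spot as deposited 6, and with the Cy5 channel alone or only the groups compared 7. Between 5 and 8 fell without the 1 h array of donor A or C or the 24 h array of donor C. Ndufb5, a complex I subunit, fell by 1.04 (SE 0.15, adjusted p = 0.000364). Of 44 mitochondrial ribosomal proteins 13 fell and 2 rose (median -0.24, slide-blocked -0.28, slide 2 -0.14), but 8 fell without the 24 h array of donor C and none with median centring. Cholesterol and fatty acid synthesis genes fell in 9 of 31 cases and rose in none (median -0.50, slide-blocked -0.63, slide 2 -0.27). That count was 0 with median centring and 5 with the background of every spot as deposited or the Cy5 channel alone. It was 16 without the 1 h array of donor B, 5 and 4 without those of donors A and C, and 5 without the 24 h array of donor C. Dhcr7, of the last step of cholesterol synthesis, fell by 1.47 (SE 0.26, adjusted p = 0.00115, or 0.0531 with median centring). Cytosolic ribosomal proteins fell in 4 of 53 cases, a smaller share than the 15.8% over all genes, and all 4 calls were lost with slide as a block. The count was 17 without the 24 h array of donor B and 1 without the 1 h or the 24 h array of donor C.

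**Figure D3:**
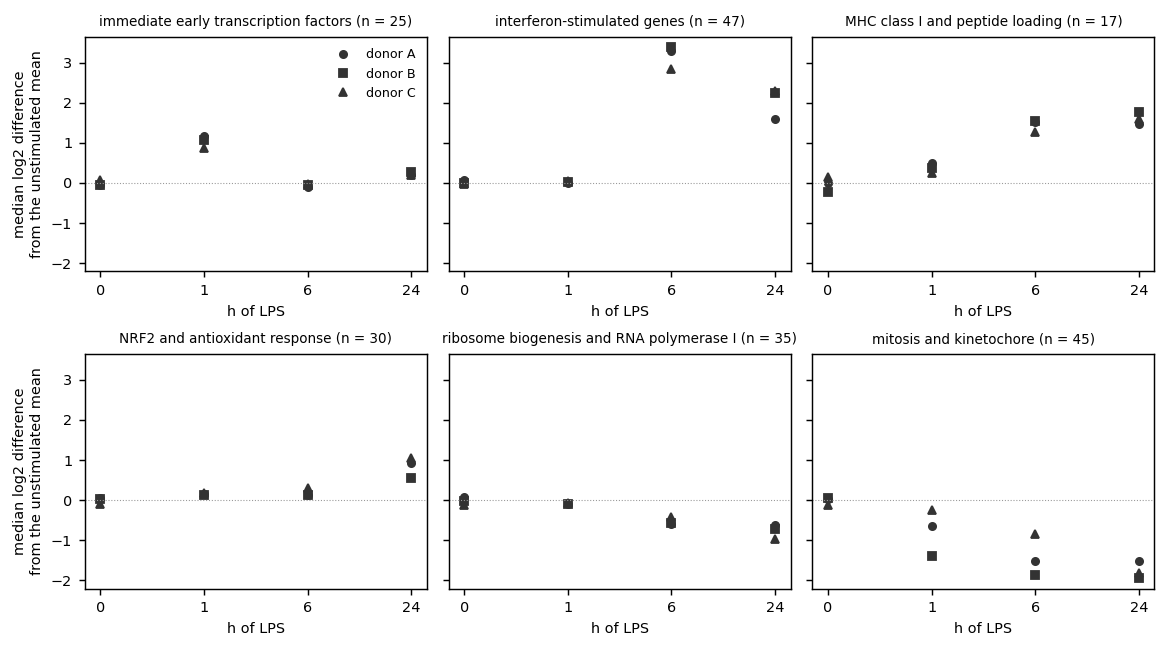
Median over the members of 6 lists of the log2 difference from the unstimulated mean (y axis) on each of the 12 arrays, by h of LPS (x axis) and with 1 symbol per donor. Immediate early genes lie at 0.86 to 1.18 on the 1 h arrays and at 0.20 to 0.28 on the 24 h arrays. Interferon-stimulated genes lie near 0 at 1 h and at 1.59 to 2.28 at 24 h, and mitosis genes at -0.26 to -1.40 at 1 h, at -0.83 to -1.85 at 6 h and at -1.51 to -1.94 at 24 h.

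Other lists held both kinds of change. Of 16 genes of prostaglandin and leukotriene synthesis, 3 rose and 5 fell (median -0.30, slide-blocked -0.28, slide 2 -0.42), and 3 fell with median centring or the background of every spot as deposited. The prostaglandin E synthase Ptges stood at -2.12, -2.06 and -2.48 at 1 h and at -0.13, 1.51 and 1.61 at 24 h, and rose 9.31-fold (3.22, SE 0.37, adjusted p = 6.13e-05). The constitutive cyclooxygenase Ptgs1 fell by 1.60 (SE 0.31, adjusted p = 0.00232, or 0.0647 with median centring). Of 26 metalloproteinases, inhibitors and serpins, 7 rose and 6 fell (median 0.12, slide-blocked -0.03, slide 2 0.11). Timp1, an inhibitor of matrix metalloproteinases, stood at -0.94, 0.66 and -0.64 and then at 2.50, 3.81 and 2.72, a 9.96-fold rise (3.32, SE 0.39, adjusted p = 6.58e-05). The protease inhibitor Slpi rose 7.86-fold (2.97, SE 0.33), and the serpin Serpinb2, high at 1 h, fell by 2.24 (SE 0.49). Genes of the lysosome fell in 15 of 42 cases and rose in 5 (median -0.22, slide-blocked -0.05, slide 2 -0.15), and 6 fell with median centring and 9 with the background of every spot as deposited. Those that rose numbered 2 with median centring, 3 with slide as a block, the background as deposited, the scanner software's processed signals or the mean over probes, and 3 without any of 4 single arrays (1 h of donor A or C, 24 h of donor B or C). The thioesterase Ppt1 fell by 1.58 (SE 0.16) and the cholesterol carrier Npc2 rose by 1.18 (SE 0.21). Hdc, which makes histamine, stood at 1.51, 2.61 and 1.43 and then at 5.03, 5.61 and 5.33, an 11.1-fold rise (3.47, SE 0.26, adjusted p = 1.87e-06). It was the only 1 of 8 tested mast cell and basophil markers that was called. Of 11 on the array, 5 were above background on all 1 h arrays and 4 on all 24 h arrays, and only Mcpt8 was on no array. Of 27 genes of the BCL2 family and apoptosis 7 rose and 4 fell (median 0.09, slide-blocked 0.08, slide 2 0.05), among them Casp4, the sensor of LPS in the cytosol, which rose by 1.40 (SE 0.22).

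**Figure D4:**
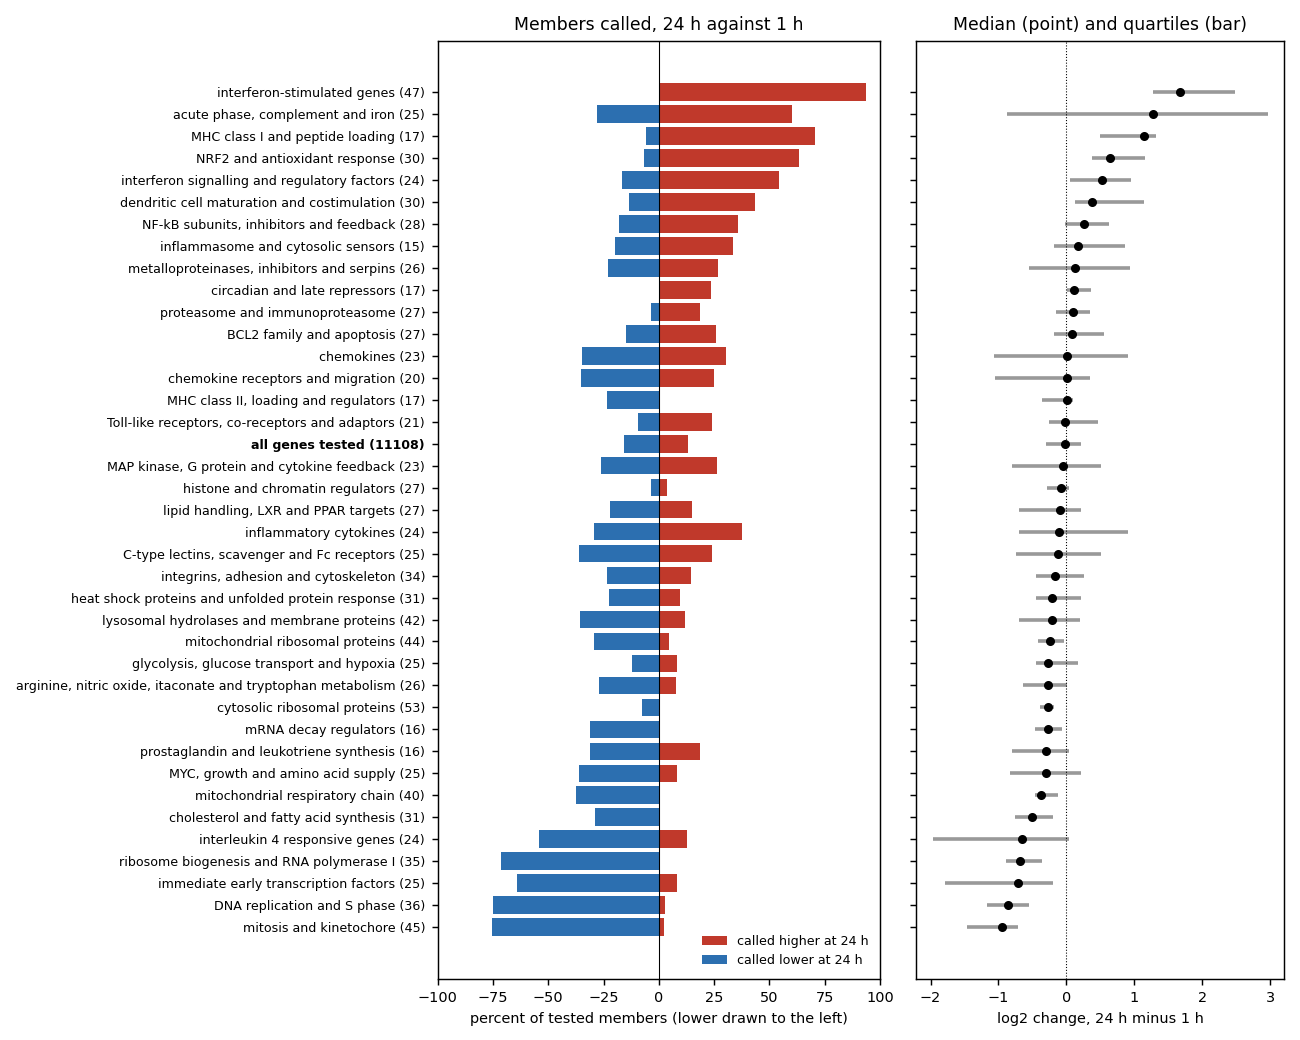
Left, percent of the tested members of each list called higher (red) or lower (blue, drawn to the left) at 24 h against 1 h. Right, the median log2 change with its quartiles, with the number of members in brackets and all 11108 genes in bold. Interferon-stimulated genes (median 1.67) and mitosis genes (median -0.95) stand at the ends, and all genes have a median of -0.02.

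Few genes lay on opposite sides of the unstimulated level early and late. At 1 h 828 genes differed from unstimulated cells (7.45%), 451 higher (4.06%) and 377 lower (3.39%), and at 24 h 4368 (39.3%), 1992 higher (17.9%) and 2376 lower (21.4%). The unstimulated arrays are the same in both. They lay on slide 1, which held no 24 h array, so group and slide are mixed in these counts. Called higher at 1 h and lower at 24 h were 24 genes (0.216%), and called lower at 1 h and higher at 24 h were 13 (0.117%). The number depended on the processing and on single arrays. It was 60 in all with donor as a block (40 and 20), which kept all 37, but 2 with slide as a block. It was 6 with median centring and 6 with the background of every spot as deposited. Without the unstimulated array of donor A it was 12, without that of donor B 13, and 24 without that of donor C or without the 1 h array of donor B. For all 37 genes the difference between 24 h and 1 h was also called, with slide as a block too. A gene called on opposite sides of the unstimulated level must differ between 24 h and 1 h by both changes together. These calls therefore follow from the choice of the genes and add no evidence. The side of the unstimulated level on which these genes lay remains uncertain.

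Among the 24 genes that were above and then below were surface receptors and transcription factors. Mrc1 was 1.22 above unstimulated cells at 1 h (adjusted p = 0.0497) and 2.92 below at 24 h (-2.92, adjusted p = 4.11e-05). Clec5a was at 1.21 (adjusted p = 0.0301) and -2.06 (adjusted p = 0.000187), and Ramp1, which shapes the receptor of the neuropeptide CGRP, at 1.19 (adjusted p = 0.0128) and -1.65 (adjusted p = 0.000251). Gpr84, a receptor for medium-chain fatty acids, stood at 2.96, 2.70 and 1.97 in unstimulated cells, at 4.23, 3.79 and 4.77 at 1 h and at 1.98, 1.30 and 1.14 at 24 h. A single unstimulated value thus lay within the range of the 24 h values, and the 1 h values lay above all others. The transcription factors Jun, Egr2 and Mycn were at 0.81, 1.15 and 1.04 at 1 h and at -0.82, -0.87 and -1.57 at 24 h. Jun stood at -0.80, -0.56 and -0.59 in unstimulated cells, 0.13, 0.24 and 0.11 at 1 h and -1.41, -1.25 and -1.74 at 24 h, with no overlap between the 3 groups. Bcl2l11, the pro-apoptotic protein Bim, stood at 0.38, 0.29 and 0.65, then 1.67, 1.96 and 1.72, then -0.68, -0.33 and -0.09, again without overlap. Tnip3 had the largest early rise of these genes (2.67, adjusted p = 1.92e-05) and was at -0.87 at 24 h (adjusted p = 0.0116). Kctd12, Vwf and Spink2 made up the other 3 of the 12 leading genes, with 24 h against 1 h differences of -1.93, -2.42 and -2.07.

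The 13 genes that were below and then above were led by Plac8, which stood at -0.51, -1.04 and -1.26 in unstimulated cells, -2.07, -2.92 and -2.42 at 1 h and 1.39, 2.09 and 1.88 at 24 h. The 3 groups did not overlap, and the changes against unstimulated cells were -1.53 (adjusted p = 0.00694) and 2.73 (adjusted p = 2.25e-05). Gadd45g, a growth arrest and stress gene, was at -1.63 (adjusted p = 0.00033) and 0.72 (adjusted p = 0.0136). The organic anion carrier Slco3a1 was at -0.94 and 1.87, and Irgm2, of the interferon-stimulated list, at -0.89 and 0.95. Parp11, a mono-ADP-ribosyltransferase, was at -0.71 and 0.38. The zinc finger genes Zfp61, Zfp958 and Zbtb5 were at -1.10, -0.52 and -0.54 at 1 h and at 0.34, 0.90 and 0.44 at 24 h. The rest of the 12 leading genes, Epm2aip1, Gpank1, 4933427D14Rik and the hormone-sensitive lipase Lipe, were 0.46 to 0.64 below at 1 h and 0.35 to 0.61 above at 24 h.

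**Figure D5:**
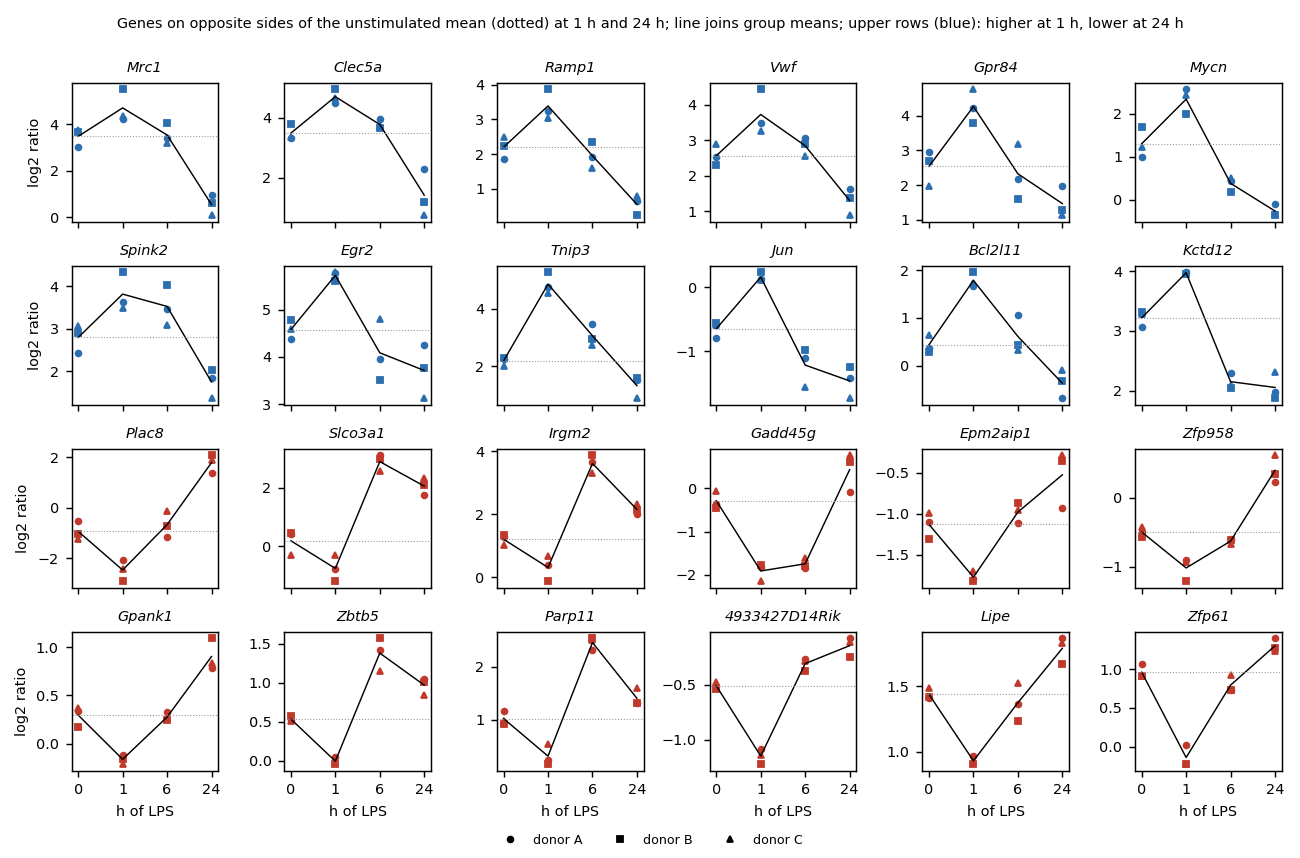
Log2 ratio of sample to reference (y axis) against h of LPS (x axis) for 24 genes called on opposite sides of the unstimulated mean (dotted line) at 1 h and 24 h. Points are donors, the black line joins group means, blue genes are higher at 1 h and lower at 24 h, and red genes the reverse. Plac8 falls by 1.53 at 1 h and ends 2.73 above the unstimulated mean, and Jun peaks at 0.81 above it and ends at -0.82.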

How the data were processed

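Scanner output was deposited as median spot and local background intensity in both channels, made with version 10.7.3.1 of Agilent's Feature Extraction per the file headers. The deposited value table holds the authors' log2 ratios; limma is named in the submitters' processing notes, without a version. It was used as an alternative. Its values correlated with those derived here at r of at least 0.9992 per array, in the same direction and on the same scale.

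Intensities were processed in R 4.3.3 with limma 3.58.1: normexp background correction (offset 50), with outlier local backgrounds replaced by the array median and outlier spots (92 to 161 per array) left out, then loess (span 0.3). The offset draws the ratios of dim probes toward 0. Of 41174 probes, 22951 carried a RefSeq accession with a symbol. A probe was kept if its Cy5 signal was well above background on all 3 arrays of any group, and the brightest probe stood for a gene; probes of 9 genes were called in opposite directions. The model had 1 mean for each group, over 12 arrays, with empirical Bayes moderation (8 residual degrees of freedom), two-sided, with Benjamini-Hochberg adjustment over all genes. The fit was tested on simulated data.

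Deviations from group means of same-lettered 1 h and 24 h arrays correlated across genes at 0.36, 0.58 and 0.21, and of different letters at -0.44 to 0.31. The 0.58 is that of donor B, whose arrays shared slide 2, so donor and slide cannot be told apart in it. The 0.21 of donor C is below the 0.31 between the 1 h array of donor C and the 24 h array of donor A. The pairing comes from the donor letters, and donor as a block is an alternative.

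The comparison, its members and the gene lists were chosen with earlier results of these data known. Named are the 12 largest rises and falls among called genes whose groups do not overlap, up to 4 called members per list, up to 12 genes per opposite direction, and 30 genes whatever their values, of which Il12b and Cd40 had no matched probe and 1 is not reported here. Promoters shown were chosen after their matches were seen. Alternatives were median centring, the background of every spot as deposited, the scanner software's processed signals, the authors' values, the Cy5 channel alone, an offset of 10, other filters and probe summaries, outlier spots kept, only the groups compared, slide or donor as a block, and each array left out. The replacement of outlier backgrounds was chosen after the files were seen.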

Additional observations from a re-analysis of the deposited data

How the results depend on the processing

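Against 3197 genes called (1440 higher, 1757 lower) and 5531 of 21766 probes (25.4%), median centring in place of loess gave 1112 genes (600 higher, 512 lower) and 1990 probes, with 1098 of the 1112 called in the same direction as before. The background of every spot as deposited gave 1818 genes (906 and 912) and 2918 probes. The scanner software's processed signals gave 3119 genes, but 1390 of at least 2-fold against 855. The causes were not tested. The other settings gave 2264 to 3575 genes, the lowest with only the groups compared and the highest with donor as a replicate block. In these settings the share of higher genes among those called ran from 44.1 to 51.1%, and it was 54% with median centring. Leaving out 1 array gave 2309 to 3195 genes called, 1061 to 1369 higher, 1215 to 1826 lower, 780 to 1028 of at least 2-fold and 3987 to 5544 probes. Of the 37 genes on opposite sides of the unstimulated level (24 first higher, 13 first lower), 6 were left with median centring (5 and 1), 6 with the background as deposited (2 and 4) and 2 with slide as a block (2 and 0). The replicate block gave 60 (40 and 20). Those first higher were 8 with processed signals and 14 with the Cy5 channel alone, which gave 22 first lower; only the groups compared gave 7 first lower. Without 1 array the total ran from 12 to 41, with 7 to 29 first higher and 3 to 16 first lower. Of 210 named genes, no called gene was reversed under any alternative. Over all genes, 1 called gene was called in the reverse direction with the scanner software's processed signals. Some list medians changed sign, as given above for cytokines and chemokines. The replicate block changed the call of no named gene but Tlr4. With slide as a block, which leaves 5 residual degrees of freedom, 2527 genes were called.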

Other observations

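Probes without a matched symbol followed the same course. Of 6646 such probes tested, 691 were higher at 24 h (10.4%) and 793 lower (11.9%), and the 20 with the largest changes ran from -4.43 to 3.76 on the log2 scale.

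The inducible chaperone Hspa1a was among the least even genes between donors. It stood at 2.65, 4.42 and 1.83 at 1 h and at 3.99, 7.06 and 5.77 at 24 h, against 0.70, 0.33 and 0.50 in unstimulated cells. It was called higher at 24 h (2.64, SE 0.85, adjusted p = 0.0346), but not with no filter on dim probes (adjusted p = 0.0523), with only the groups compared (adjusted p = 0.0556) or when any of 4 single arrays was left out (adjusted p = 0.0945 to 0.135). The clock gene Per1 and the glucocorticoid-induced Tsc22d3 rose by 0.94 (SE 0.21) and 1.89 (SE 0.27), and 4 of 17 circadian and late repressors rose while none fell (median 0.11, slide-blocked 0.21, slide 2 0.05). Per1 lost its call with median centring (adjusted p = 0.157).

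Of 25 glycolysis genes, 2 were higher and 3 lower (median -0.27, slide-blocked -0.29, slide 2 -0.14). Both were smaller shares than the 13% higher and 15.8% lower over all genes. Pfkfb3, which makes the activator of phosphofructokinase, stood at -0.09, 0.10 and -0.23 at 1 h and at 0.96, 1.58 and 1.84 at 24 h, and rose 2.90-fold (1.54, SE 0.22, adjusted p = 0.000286).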
